A study of Mus musculus with 16 samples.

Results

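The tricarboxylic acid (TCA) cycle oxidises acetyl groups to carbon dioxide in the mitochondrial matrix and passes the electrons to the respiratory chain. Its succinate dehydrogenase is also complex II of that chain, so the same enzyme works in both pathways. Muscle depends on this cycle for sustained contraction, and its enzyme levels are widely used as a measure of how much oxidative machinery a muscle cell holds. Transcripts of 9 enzymes of the cycle were followed here: Cs, Idh3a, Ogdh, Suclg1, Sdha, Sdhb, Sdhc, Fh1 and Mdh2. They were taken by exact symbol, and all 9 were found among the 24346 rows of the expression table. All are protein-coding genes of the nucleus, on mouse chromosomes 10 (Cs), 9 (Idh3a), 11 (Ogdh), 6 (Suclg1), 13 (Sdha), 4 (Sdhb), 1 (Sdhc and Fh1) and 5 (Mdh2). In GENCODE M21 (GRCm38) the genes that the results turn on most span chr4:140961203-140979193 (Sdhb), chr13:74322254-74350280 (Sdha), chr11:6291633-6356642 (Ogdh) and chr5:135778480-135790398 (Mdh2).

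The libraries were poly-A RNA-seq of differentiated C2C12 myotubes, a mouse muscle cell line, kept for 24 hr in mouse serum. Serum came from mice whose liver alone lacked the clock gene Bmal1 (Bmal1hep-/-), bled at ZT16 (night) or ZT4 (day), or from wild-type (WT) mice bled at ZT16 or ZT4. Myotubes under each serum are called Bmal1hep-/- ZT16, Bmal1hep-/- ZT4, WT ZT16 and WT ZT4, with 4 libraries each that the labels call biological replicates. No source used here gives the age of the donors, the driver of the liver deletion or whether serum of several mice was pooled. The spread between libraries of a group may therefore be technical, and p-values measure that spread and no other. Bmal1 was deleted in the donors and not in the myotubes, whose Arntl (the table's symbol for Bmal1) ran from 4.25 to 7.51 FPKM in the 8 libraries under Bmal1hep-/- serum and from 4.64 to 7.88 FPKM in the 8 under WT serum.

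All 16 markers of differentiated myotubes were measured, among them Mylpf (2513 FPKM on average), Acta1 (2139 FPKM) and Myog (358 FPKM), and the 8 markers of undifferentiated or proliferating myoblasts were measured as well. Summed FPKM of the myotube markers was 7079 to 8042 in Bmal1hep-/- ZT16, 6392 to 9621 in Bmal1hep-/- ZT4, 7452 to 9335 in WT ZT16 and 6966 to 8155 in WT ZT4. Summed FPKM of the myoblast markers was 427 to 464, 432 to 491, 472 to 589 and 440 to 498 in the same 4 groups, and no marker of either list passed in a comparison in limma. The myoblast sums of Bmal1hep-/- ZT16 lay below those of WT ZT16 without overlap, and 11.9% of all tested genes were without overlap there. Summed FPKM of whole libraries lay below without overlap too, at 580818 to 612430 against 637598 to 664601. Of the 8 genes, Id1 (66.5 against 100.7 FPKM) and Id3 (54.6 against 91.8 FPKM) differed most there. Of the proliferation markers, Top2a (0.11 log2) and Mki67 (0.08) had estimates above 0. Ccnb1 (99.9 against 102.1 FPKM) and Cdk1 (70.6 against 75.3 FPKM) were lower on average in Bmal1hep-/- ZT16. In all, 2 of the 8 estimates were above 0 and 6 below. The part of these genes in the differences between these groups was not tested. The markers of adipocytes (4), hepatocytes (5) and endothelium (3) each summed to at most 0.184 FPKM per library, and those of blood cells (6) to at most 2.86 FPKM. Depth relative to the deepest library, a rough estimate from low FPKM values, was 66.6 to 100%. Replicate 1 of Bmal1hep-/- ZT4 stood apart on the first principal component, and no member passed with or without it. The level of 134 tested genes with transcripts under 500 nt relative to 7750 with transcripts over 2000 nt, called the short-minus-long value (log2), varied most within Bmal1hep-/- ZT4, from -0.19 to 0.32. It was -0.14 to 0.01 in Bmal1hep-/- ZT16, 0.005 to 0.20 in WT ZT16 and -0.14 to -0.04 in WT ZT4. WT ZT16 thus lay above WT ZT4 without overlap. The group means were -0.06, 0.05, 0.10 and -0.08 in Bmal1hep-/- ZT16, Bmal1hep-/- ZT4, WT ZT16 and WT ZT4.

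The upstream sequence of 7 of the 9 genes could be matched in RefSeq (GRCm38.p6); Idh3a and Sdhc were not. The 250 bases before the start site of Sdha (chr13:74350241-74350490, minus strand) and Mdh2 (chr5:135778399-135778648, plus strand) are shown because each repeats a motif 3 times, which no other member did. The start sites are those of RefSeq. The GENCODE M21 spans given above begin further upstream, so part of each stretch lies within them. Capitals mark, in Sdha, matches to the motif of NRF1, a regulator of nuclear genes for mitochondrial proteins, and, in Mdh2, copies of a single palindrome.

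Sdha: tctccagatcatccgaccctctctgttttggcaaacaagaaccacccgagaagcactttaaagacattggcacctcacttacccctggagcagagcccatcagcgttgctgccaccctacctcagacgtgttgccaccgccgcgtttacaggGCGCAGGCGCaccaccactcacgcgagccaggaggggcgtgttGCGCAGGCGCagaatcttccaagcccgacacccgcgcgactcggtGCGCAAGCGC
Mdh2: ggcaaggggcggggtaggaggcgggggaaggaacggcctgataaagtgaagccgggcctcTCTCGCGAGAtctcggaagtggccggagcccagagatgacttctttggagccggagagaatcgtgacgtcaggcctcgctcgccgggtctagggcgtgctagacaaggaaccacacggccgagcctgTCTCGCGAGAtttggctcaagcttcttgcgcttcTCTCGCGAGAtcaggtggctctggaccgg

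The NRF1 matches of Sdha began 98, 55 and 10 bases before the start, and the palindromes of Mdh2 began 190, 63 and 29 bases before it. Over windows of 300 bases (250 before and 50 after a start, both strands), the NRF1 motif was in 6.23% of 32851 RefSeq promoters and the palindrome of Mdh2 in 0.466%. The E-box CACGTG, the site bound by BMAL1 and CLOCK, was in 7.15% of promoters and in those of 1 member, Ogdh, at 3 of its 6 start sites. The cAMP response element TGACGTCA was in 1.79% of promoters and in those of Mdh2 and Ogdh, the ETS motif CCGGAAG in 8.86% and in that of Sdhb, and the ERR motif TCAAGGTCA in 0.423% and in that of no member. The motifs were chosen after the sequences had been seen, and a match is a description of letters only.

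The highest and lowest libraries of each of the 9 transcripts differed by a ratio of at most 1.37. FPKM is per transcript length, so levels of different genes can be compared roughly. Division by length did not remove the variation of the short-minus-long value between libraries, and the program that gave FPKM is not named. The most abundant was Mdh2, the mitochondrial malate dehydrogenase that regenerates oxaloacetate, at 352 ± 18.4 FPKM (mean ± SD over 16 libraries), and the least was Ogdh, the E1 subunit of the 2-oxoglutarate dehydrogenase complex, at 42.1 ± 2.78 FPKM. Between them lay Sdhc, a membrane anchor of complex II (164 ± 6.97 FPKM), and Cs, the citrate synthase that opens the cycle (141 ± 7.25 FPKM). The flavoprotein subunit Sdha followed at 108 ± 3.24 FPKM and the iron-sulphur subunit Sdhb at 97.9 ± 7.61 FPKM. Fh1, the fumarase, had 94.1 ± 5.38 FPKM. Suclg1, the alpha subunit of succinyl-CoA ligase, had 88.9 ± 4.14 FPKM, and Idh3a, the catalytic subunit of the NAD-dependent isocitrate dehydrogenase, 85.2 ± 5.35 FPKM.

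Mdh2, Sdhc and Cs were in that order in 16 of 16 libraries with no overlap of their ranges, and Ogdh lay below every other member in all 16. The ranges of Sdha, Sdhb, Fh1, Suclg1 and Idh3a overlapped from one to the next, and neighbours were in the order of their means in 14, 12, 12 and 11 of 16 libraries. All 9 were far above the minimum mean of 0.5 FPKM that a gene needed to be tested, which 11783 genes reached. The ratio of the highest to the lowest library was 1.11 for Sdha and 1.37 for Ogdh, with the other 7 genes in between. The residual SD within groups on the log2(FPKM+1) scale had a median of 0.08 over the members, 0.13 over all tested genes and 0.10 over the 2021 tested genes with a mean FPKM in the members' range. Sdha had a residual SD of 0.04, lower than in all but 0.297% of those 2021 genes. Sdhb had the highest of the 9, 0.11, at percentile 52.9 of the same genes.

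**Figure D1:**
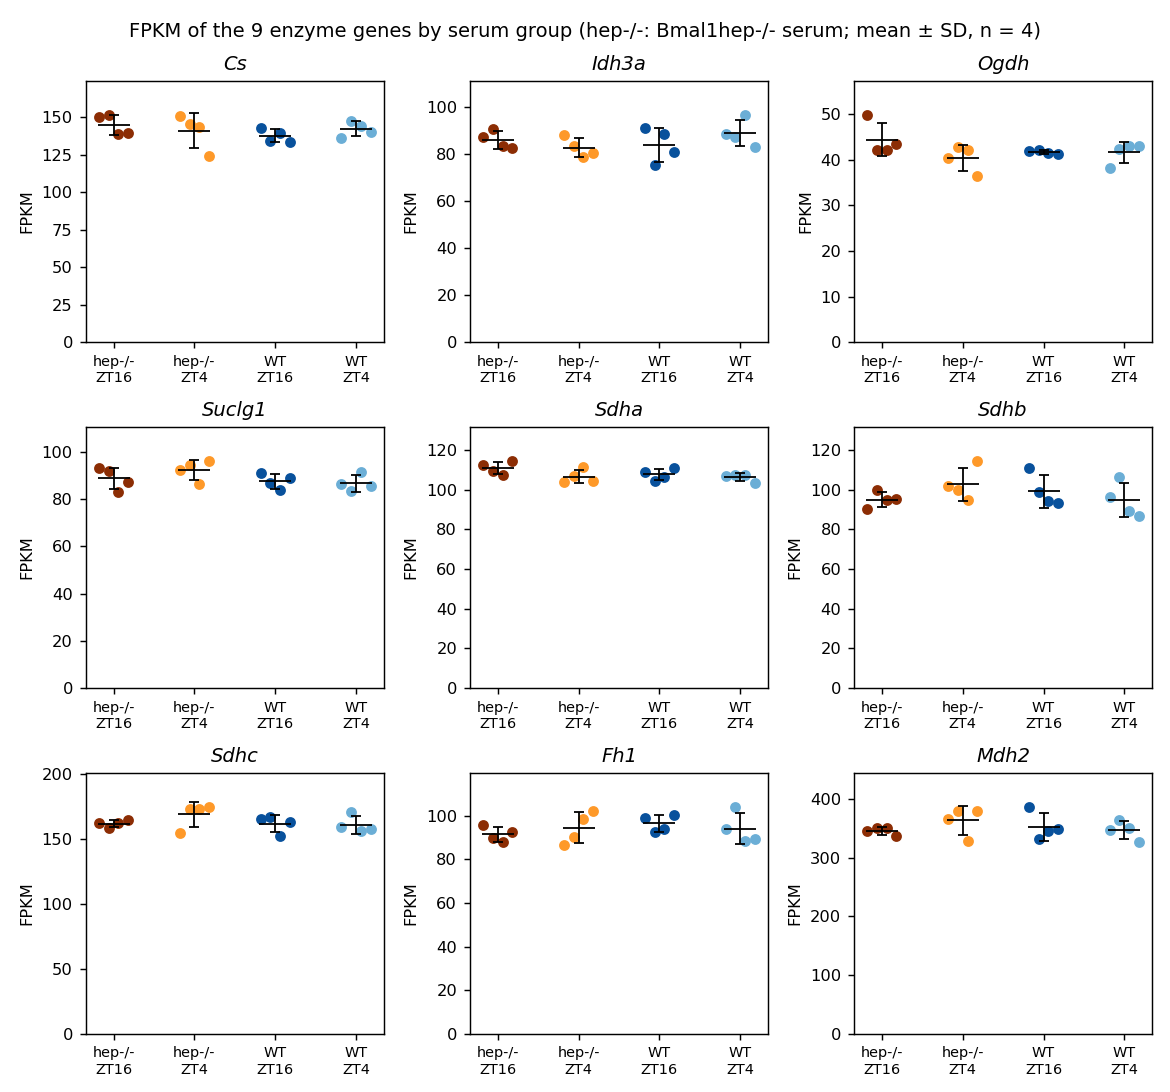
FPKM (vertical axes, from 0) of each of the 9 genes in the 16 libraries, by serum group; points are libraries, in the order of replicates 1 to 4, and bars give mean ± SD (n = 4). Of all pairs of groups, those without overlap are Bmal1hep-/- ZT16 (from 42.2 FPKM) and WT ZT16 (up to 42.1 FPKM) for Ogdh, and Bmal1hep-/- ZT16 (from 107.5 FPKM) and WT ZT4 (up to 107.3 FPKM) for Sdha. The share of all tested genes without overlap was 11.9% for the pair at ZT16 and was not counted for the other.

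No member passed in any comparison, at a Benjamini-Hochberg adjusted p under 0.05 in limma over 11783 genes. In the comparisons as fitted with all 16 libraries, none had an unadjusted p under 0.05. The 36 estimates of the 4 pairwise comparisons ran from -0.11 to 0.13 log2 (-7.35 to 9.61%), and their 95% confidence intervals reached from -17.0 to 20.9%; all 36 held 0. In bulk RNA, fewer cells of a type and less RNA per cell cannot be told apart. Changes are differences of log2(FPKM+1), and at these levels the added 1 alters them little.

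Of the complex II genes, Sdhb had 90.3, 99.7, 94.8 and 95.1 FPKM in replicates 1 to 4 of Bmal1hep-/- ZT16, and 102, 99.7, 94.7 and 115 FPKM in Bmal1hep-/- ZT4. In WT ZT16 it had 111, 98.6, 94.3 and 93.1 FPKM, and in WT ZT4 96.4, 107, 89.4 and 86.9 FPKM. One library stood high in each of the last 3 groups, and all groups overlapped. Sdhb had the widest intervals of the 9 genes. Its night-minus-day difference was -0.11 ± 0.07 log2 (estimate ± SE) under Bmal1hep-/- serum, with an interval of -17.0 to 3.36% (limma, adjusted p = 0.584). Under WT serum it was 0.07 ± 0.07, with an interval of -6.12 to 16.8%. Under the alternative fits described at the end, the WT estimate ran from -0.02 to 0.12. The lowest came with the same summed FPKM per library, which moved the median of all genes too, and the highest without replicate 2 of WT ZT4. The difference between these 2 effects was -0.18 ± 0.11 (limma, adjusted p = 0.592). With the trend with transcript length removed from each library, the estimate under Bmal1hep-/- serum was -0.01. Bmal1hep-/- minus WT averaged over times was 0.03 ± 0.05, and 0.00 without replicate 4 of Bmal1hep-/- ZT4.

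Sdha, which holds the succinate-oxidising site, had 113, 109, 108 and 114 FPKM in Bmal1hep-/- ZT16 and 104, 107, 111 and 104 FPKM in Bmal1hep-/- ZT4. It had 109, 104, 106 and 111 FPKM in WT ZT16, against 107, 107, 107 and 103 FPKM in WT ZT4. The 4 Bmal1hep-/- ZT16 libraries lay above the 4 of WT ZT4, at 107.5 FPKM against 107.3 FPKM at the nearest, and the other pairs of groups overlapped. The former pair was none of the 7 comparisons, and the share of all tested genes without overlap in it was not counted. Over all 16 libraries Sdha had the lowest coefficient of variation of the 9 genes, 3.01%. Bmal1hep-/- serum minus WT serum was 0.04 ± 0.04 at ZT16 (interval -3.26 to 9.86%) and 0.00 ± 0.04 at ZT4 (interval -5.88 to 6.88%). Night minus day was 0.06 ± 0.04 under Bmal1hep-/- serum and 0.02 ± 0.04 under WT serum.

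Sdhc had 162, 158, 163 and 165 FPKM in Bmal1hep-/- ZT16, and 155, 173, 174 and 175 FPKM in Bmal1hep-/- ZT4. In WT ZT16 it had 165, 167, 153 and 163 FPKM, and in WT ZT4 159, 171, 156 and 158 FPKM. In Bmal1hep-/- ZT4 3 libraries lay above every library of the other groups and replicate 1 lay among them. Bmal1hep-/- ZT4 minus WT ZT4 was 0.07 ± 0.05 (interval -2.77 to 13.2%). It was 0.11 without that replicate (limma, unadjusted p = 0.0379, adjusted p = 0.397). With the same summed FPKM per library it was -0.01, and that scaling moved the median of all genes by -0.07 in this comparison. At ZT16 the serum genotypes differed by 0.00 ± 0.05 (interval -7.30 to 7.93%). The level of Sdhc relative to Sdha was 1.46 ± 0.0344 in Bmal1hep-/- ZT16, 1.59 ± 0.0812 in Bmal1hep-/- ZT4, 1.51 ± 0.0694 in WT ZT16 and 1.52 ± 0.0601 in WT ZT4 (mean ratio of FPKM ± SD, n = 4). That of Sdhb relative to Sdha was 0.856 ± 0.0488, 0.967 ± 0.103, 0.922 ± 0.0772 and 0.892 ± 0.0735 in the same 4 groups. Both ratios were the highest on average in Bmal1hep-/- ZT4 and the lowest in Bmal1hep-/- ZT16, and their ranges overlapped between those groups. The ratios were not tested.

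Of the enzymes ahead of complex II in the cycle, Cs had 150.1, 151, 139 and 139 FPKM in Bmal1hep-/- ZT16, and 150.5, 145, 144 and 124 FPKM in Bmal1hep-/- ZT4. In WT ZT16 it had 143, 134, 139.5 and 134 FPKM, and in WT ZT4 136, 148, 144 and 140.3 FPKM. Replicate 4 of Bmal1hep-/- ZT4 was the lowest of the 16, and the groups overlapped. Bmal1hep-/- ZT16 minus WT ZT16 was 0.07 ± 0.06 (interval -3.62 to 14.8%), and the other pairwise differences of Cs lay between -0.05 and 0.04.

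Idh3a averaged 85.8 ± 3.70 FPKM in Bmal1hep-/- ZT16, 82.5 ± 4.00 in Bmal1hep-/- ZT4, 83.8 ± 7.25 in WT ZT16 and 88.7 ± 5.63 in WT ZT4. Its lowest estimate was Bmal1hep-/- ZT4 minus WT ZT4, at -0.10 ± 0.07 (interval -15.3 to 2.50%; limma, adjusted p = 0.610). Of the 9 interaction estimates, that of Idh3a was the highest, at 0.14 ± 0.09 (interval -3.79 to 26.0%), and that of Sdhb the lowest (interval -24.2 to 3.27%).

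Ogdh had 49.8, 42.2, 42.3 and 43.6 FPKM in Bmal1hep-/- ZT16, and 40.5, 42.9, 42.1 and 36.4 FPKM in Bmal1hep-/- ZT4. It had 41.9, 42.1, 41.5 and 41.2 FPKM in WT ZT16, and 38.3, 42.4, 43.0 and 43.0 FPKM in WT ZT4. All 4 Bmal1hep-/- ZT16 libraries lay above all 4 of WT ZT16, by a margin of less than 0.1 FPKM at the nearest, while the other groups overlapped. It was the 1 member of 9 without overlap there, where 11.9% of all tested genes were without overlap. Of the 36 pairwise estimates, the largest was that of Ogdh between Bmal1hep-/- ZT16 and Bmal1hep-/- ZT4, 0.13 ± 0.06 (9.61%, interval -0.210 to 20.4%; limma, unadjusted p = 0.0548, adjusted p = 0.430). Without replicate 1 of Bmal1hep-/- ZT16, its highest library, that difference was 0.08.

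Suclg1 averaged 88.9 ± 4.55 FPKM in Bmal1hep-/- ZT16, 92.3 ± 4.37 in Bmal1hep-/- ZT4, 87.7 ± 3.15 in WT ZT16 and 86.8 ± 3.51 in WT ZT4. Bmal1hep-/- ZT4 minus WT ZT4 was 0.09 ± 0.05 (interval -1.61 to 14.9%; limma, adjusted p = 0.589). Averaged over both times, Suclg1 had the largest genotype estimate of the 9, at 0.05 ± 0.04 (interval -1.77 to 9.62%).

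Of the 2 enzymes behind complex II, Fh1 averaged 91.5 ± 3.41 FPKM in Bmal1hep-/- ZT16, 94.4 ± 7.13 in Bmal1hep-/- ZT4, 96.4 ± 3.85 in WT ZT16 and 94.1 ± 7.13 in WT ZT4. Its Bmal1hep-/- ZT16 minus WT ZT16 difference was -0.08 ± 0.06 (interval -13.5 to 4.07%), and at ZT4 the serum genotypes differed by 0.01 ± 0.06. Mdh2 had 345, 350.2, 350.2 and 337 FPKM in Bmal1hep-/- ZT16, and 366, 379.6, 328 and 379 FPKM in Bmal1hep-/- ZT4. It had 387, 332, 345 and 348 FPKM in WT ZT16, and 347, 364, 350.1 and 326 FPKM in WT ZT4. Bmal1hep-/- ZT16 was the tightest group, and its 4 values lay inside the range of each other group. Night minus day of Mdh2 was -0.07 ± 0.06 under Bmal1hep-/- serum (interval -12.8 to 4.02%) and 0.02 ± 0.06 under WT serum (interval -6.90 to 11.1%). Without replicate 3 of Bmal1hep-/- ZT4 the estimate under Bmal1hep-/- serum was -0.12, and with the trend with transcript length removed it was 0.01.

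**Figure D2:**
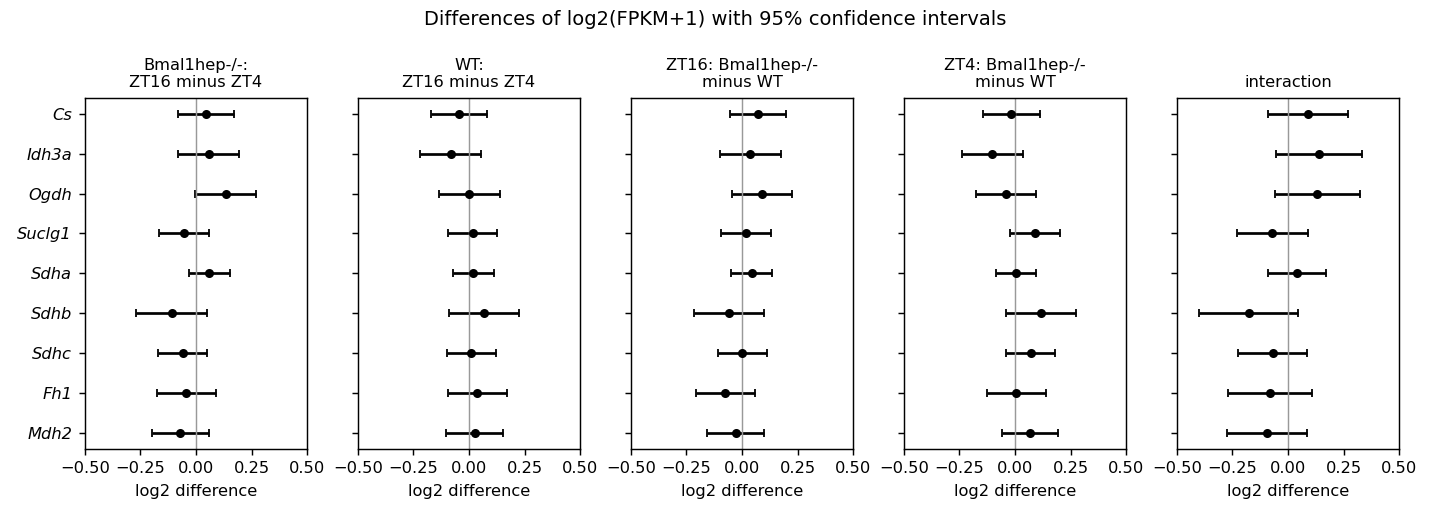
Estimated differences of log2(FPKM+1) for the 9 genes (points) with 95% confidence intervals (bars) in the 4 pairwise comparisons and the interaction, the night-minus-day difference under Bmal1hep-/- serum minus that under WT serum. Every interval includes 0, and the bounds of the pairwise intervals lie between -0.27 and 0.27 (rounded).

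By comparison, the 9 members had a median of -0.04 log2 for night minus day under Bmal1hep-/- serum, with 4 estimates above 0 and 5 below, beside 0.01 over all tested genes. There 0.017% of all genes passed and 11.9% had an unadjusted p under 0.05. Under WT serum the members' median was 0.02, with 7 above 0 and 2 below, and 0% of all genes passed (3.97% at an unadjusted p under 0.05), with an all-gene median of 0.00. No member was without overlap between night and day under either serum, as were 5% of all genes under Bmal1hep-/- serum and 4.35% under WT serum. Bmal1hep-/- minus WT had a member median of 0.02 at ZT16 (6 above and 3 below; all genes 0.01, 0.0509% passing, 12.7% at an unadjusted p under 0.05). At ZT4 it was 0.01 (6 above and 3 below; all genes -0.01, 0.00849% passing, 10.3% at an unadjusted p under 0.05), and 0 of 9 members were without overlap, beside 3.93% of all genes. The interaction had a member median of -0.07 (4 above and 5 below; all genes 0.01, 0.0934% passing, of which 0.0849% lower and 0.00849% higher, and 10.3% at an unadjusted p under 0.05). The 4 groups each enter several of these comparisons, so the medians are not independent of one another. With 0 of 9 called against shares this low, the members' counts do not set them apart from other genes.

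Averaging pairs of groups narrowed the intervals. For Bmal1hep-/- minus WT over both times, the 9 estimates ran from -2.39 to 3.77% and the intervals from -8.61 to 10.1% (0% of all genes passing, 11.8% at an unadjusted p under 0.05). No member was without overlap between the serum genotypes, beside 0.0594% of all genes, nor between the times, beside 0.00849%. For ZT16 minus ZT4 over both serum genotypes, they ran from -1.75 to 4.75% and from -8.83 to 11.9% (0% passing, 4.57% at an unadjusted p under 0.05).

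The other genes of the pathway were taken from 5 lists of 51 genes, of which 49 were tested; Slc25a21 and Adhfe1 had too low a level. None of the 49 passed in limma in any of the 7 comparisons as fitted, while Mpc1 and Mdh1 each passed in 1 comparison under some other settings. Of other TCA cycle enzymes, including Dlst and Sdhd, the numbers with an unadjusted p under 0.05 in the 4 pairwise comparisons were 3 of 11 for night minus day under Bmal1hep-/- serum, 0 under WT serum, 2 for the genotypes at ZT16 and 2 at ZT4. The 4 complex II assembly factors gave 1, 0, 0 and 1 in that order. The 14 genes of pyruvate entry gave 2, 1, 4 and 4, the 14 of anaplerosis and carriers 0, 0, 2 and 0, and the 6 of 2-hydroxyglutarate and lipoate metabolism none. Together the 49 genes gave 6, 1, 8 and 7 in that order. Of all tested genes, 11.9, 3.97, 12.7 and 10.3% had an unadjusted p under 0.05 in the same comparisons.

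Mdh1, the cytosolic partner of Mdh2 in the malate-aspartate shuttle, had 109 to 130.3 FPKM in Bmal1hep-/- ZT16, 113 to 149 in Bmal1hep-/- ZT4, 97.9 to 114 in WT ZT16 and 104 to 115 in WT ZT4. The groups overlapped, with the upper libraries under Bmal1hep-/- serum. Bmal1hep-/- minus WT averaged over times was 0.21 ± 0.06 (limma, adjusted p = 0.169), set beside 0.02 ± 0.04 for Mdh2. At ZT4 the difference of Mdh1 was 0.25 ± 0.08 (limma, adjusted p = 0.310).

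Mpc1 and Mpc2 form the carrier that brings pyruvate into mitochondria. Mpc1 had 50.4 to 54.7 FPKM in Bmal1hep-/- ZT16, 54.1 to 65.3 in Bmal1hep-/- ZT4, 56.7 to 60.4 in WT ZT16 and 50.7 to 55.6 in WT ZT4. Bmal1hep-/- ZT16 lay below WT ZT16 without overlap, and WT ZT16 above WT ZT4. Of all tested genes, 11.9% and 4.35% were without overlap in these 2 comparisons, as were 9 and 2 of the 49 pathway genes. The interaction of Mpc1, -0.31 ± 0.08, had the smallest p of the 49 genes (limma, adjusted p = 0.149). It was -0.16 with each library's trend with transcript length removed. Mpc2 had an interaction of -0.35 ± 0.12 (limma, adjusted p = 0.296) and Sdhaf3, an assembly factor of complex II, -0.56 ± 0.19 (limma, adjusted p = 0.312). The interaction of Idh3g, the regulatory partner of Idh3a, was -0.19 ± 0.08 (limma, adjusted p = 0.442).

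Pdk4 is a kinase that shuts down pyruvate dehydrogenase. It had 44.3 to 60.1 FPKM in Bmal1hep-/- ZT16 and 17.3 to 43.5 FPKM in WT ZT16, without overlap, as in 11.9% of all tested genes. The difference was 0.59 ± 0.21 (limma, adjusted p = 0.276), and 0.30 without replicate 1 of WT ZT16. Its night-minus-day difference under WT serum was -0.41 ± 0.21 (limma, adjusted p = 0.999), and -0.11 without that library. Also among the smallest p were Mpc1 (0.13 ± 0.06), Pdk2 (0.24 ± 0.12) and Sdhaf3 (0.27 ± 0.14) for WT night minus day. For Bmal1hep-/- night minus day they were Mpc1 (-0.18 ± 0.06), Mpc2 (-0.24 ± 0.08), Suclg2 (0.20 ± 0.08) and Ogdhl (-0.30 ± 0.13), with adjusted p of 0.246 to 0.389 in limma. Ogdhl had only 0.655 against 1.02 FPKM on average, a level at which the added 1 makes the log2 difference smaller. For the genotypes at ZT4 they were Mpc1 (0.16 ± 0.06), Pdk2 (0.32 ± 0.12) and Idh3g (0.14 ± 0.06), and at ZT16 Mpc1 (-0.15 ± 0.06), Mpc2 (-0.22 ± 0.08) and the cytosolic malic enzyme Me1 (0.22 ± 0.09). Averaged over times, Pdk4 (0.38 ± 0.15, and 0.23 without that library of WT ZT16), Pdk1 (0.64 ± 0.25) and Me1 (0.17 ± 0.06) followed Mdh1 for the genotypes. Pdk1 had a low mean of 4.48 FPKM over the 16 libraries. Averaged over genotypes, Lipt1 (-0.15 ± 0.07), Lias (-0.10 ± 0.04), Pck2 (-0.21 ± 0.11) and Slc25a1 (-0.15 ± 0.09) led for night minus day, all with an adjusted p of 0.969 in limma.

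**Figure D3:**
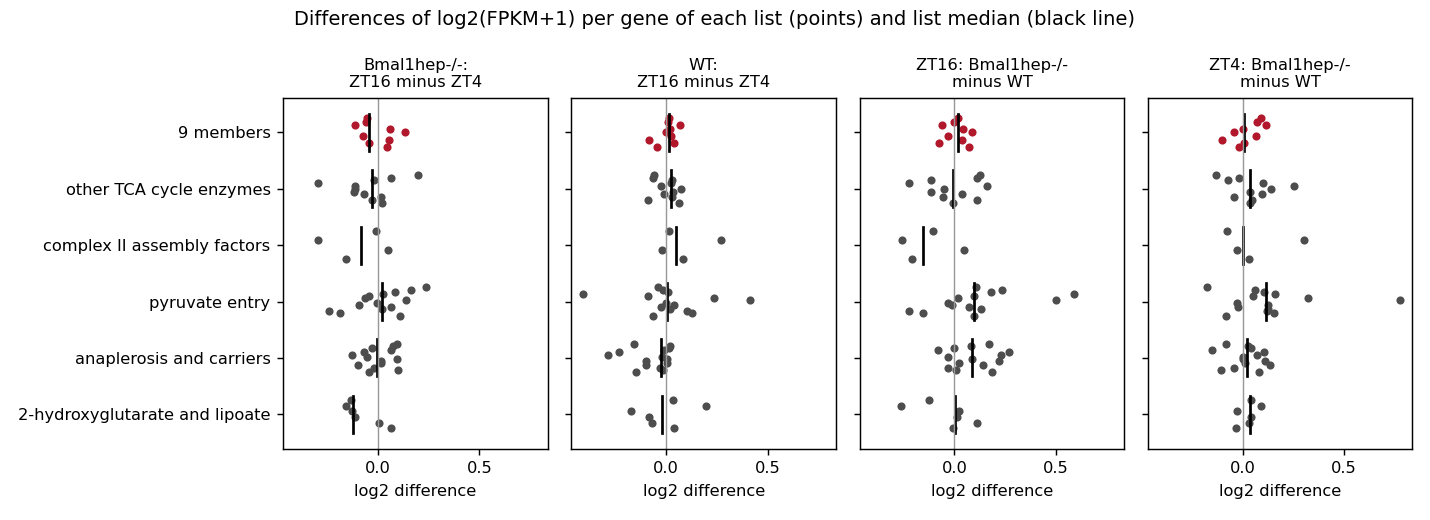
Differences of log2(FPKM+1) (horizontal axes) per tested gene for the 9 members (red) and the 5 pathway lists (grey), with list medians as black lines, in the 4 pairwise comparisons. The members lie between -0.11 and 0.13, while genes of pyruvate entry reach 0.78 (Pdk1, Bmal1hep-/- ZT4 minus WT ZT4). Pdk1 is low and spread widely, at 2.11 to 10.9 FPKM in Bmal1hep-/- ZT4 and 1.89 to 3.08 FPKM in WT ZT4. No gene shown passed.

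The members differ in transcript length. Annotated transcripts (median over GENCODE M21 basic transcripts of GRCm38) were 1142 nt for Sdhb, 1456 for Mdh2, 1519 for Suclg1 and 1993 for Sdhc, and 2491.5 for Idh3a, 2636 for Fh1, 2900 for Sdha, 2926 for Cs and 4110 for Ogdh. For night minus day under Bmal1hep-/- serum, the 4 shortest and Fh1 had estimates below 0 and the other 4 above. Across the 16 libraries, log2(FPKM+1) of Sdhb had a Pearson r of 0.60 with the short-minus-long value (permutation p = 0.0135, adjusted over 9 genes 0.0607) and a Spearman rho of 0.51 (permutation p = 0.0444, adjusted 0.1997). Cs had r = -0.60 (permutation p = 0.0129, adjusted 0.0607) and rho = -0.47 (permutation p = 0.0672, adjusted 0.202). Mdh2 had r = 0.56 (permutation p = 0.0257, adjusted 0.0772) and rho = 0.55 (permutation p = 0.0307, adjusted 0.1997). No gene of the 9 passed after adjustment. Without the 2 libraries farthest from the median short-minus-long value r was 0.42 for Sdhb, 0.72 for Mdh2 and -0.17 for Cs, so the relation of Cs rests on those 2 libraries. Centred within groups, r was 0.54 for Sdhb, 0.53 for Mdh2 and -0.55 for Cs. Among the other 6 genes r ran from -0.46 for Ogdh to 0.43 for Sdhc. With each library's trend with transcript length removed, the night-minus-day estimate under Bmal1hep-/- serum was -0.01 for Sdhb (-0.11 before), 0.01 for Mdh2 (-0.07 before), 0.09 for Ogdh (0.13 before) and 0.03 for Cs (0.04 before). The interaction was then -0.05 for Sdhb (-0.18 before) and 0.07 for Ogdh (0.13 before).

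**Figure D4:**
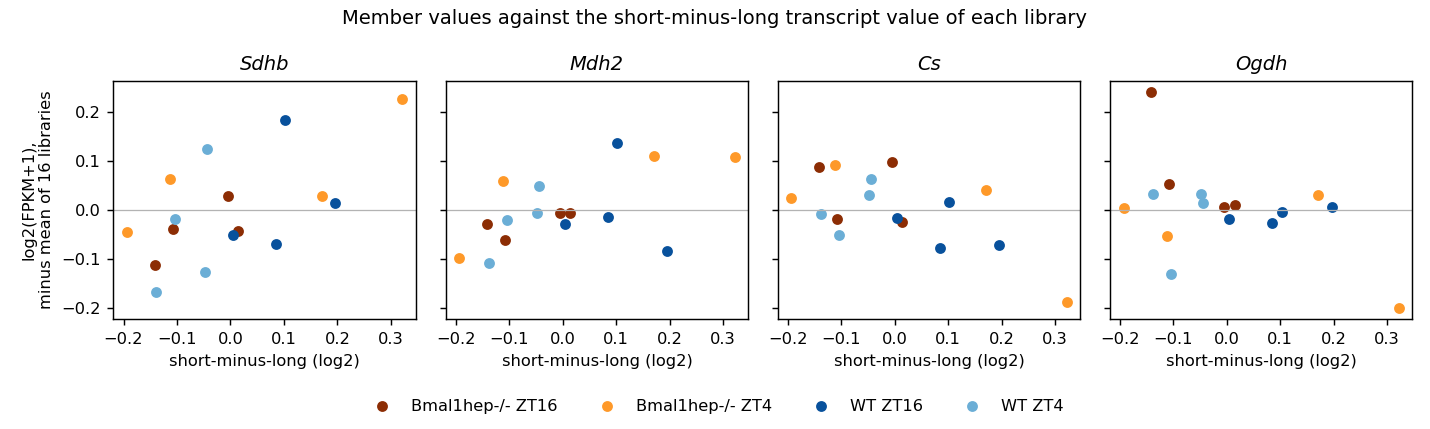
Log2(FPKM+1) of Sdhb, Mdh2, Cs and Ogdh, each minus its mean over the 16 libraries (vertical axis), against the short-minus-long value of the library (horizontal axis); points are libraries, coloured by serum group. Replicate 4 of Bmal1hep-/- ZT4, at 0.32, has the highest Sdhb (115 FPKM) and the lowest Cs (124 FPKM) and Ogdh (36.4 FPKM) of the 16 libraries.

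The members did not vary as 1 block. Among the 36 pairs of members, Pearson r over the 16 libraries had a median of 0.08 and ran from -0.58 (Idh3a with Sdhc) to 0.77 (Sdhb with Mdh2), with 20 positive and 16 negative. Sdhb with Mdh2 was the 1 pair past an adjusted p of 0.05 by Pearson (permutation p = 0.00064, adjusted over 36 pairs 0.0230), with rho = 0.72 (permutation p = 0.00212, adjusted 0.0763). It had r = 0.59 without the 2 libraries farthest from the median of Sdhb, and r = 0.73 with each gene centred within its group. Both genes were also those with the highest r to the short-minus-long value, and the share of that in their correlation was not tested. The tested genes with the highest Pearson r to the mean z-score of the 9 members over the 16 libraries were Atp5b (0.83), Xrcc6 (0.80), Mrpl45 (0.77), Cops4 (0.76) and Il34 (0.75), chosen as the highest of all and given without a test.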

How the data were processed

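Each library has 1 column of FPKM in the authors' deposited table, a unit given by the table's name. Per the submitters' processing notes, STAR and FastQC 0.11.8 were used, and the builds mm10 and GRCm39 are named without a role; no source used here names the program that gave FPKM. Columns were assigned by library name, since the replicate numbers of 7 of 16 columns differ from those of the titles. Of 24346 rows, 27 with symbols turned into dates were left out.

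Log2(FPKM+1) of the 11783 genes with a mean of at least 0.5 FPKM was fitted with limma 3.58.1 (R 4.3.3) in 1 model of 4 groups, trend on, with no replicate block, and adjusted by Benjamini-Hochberg over all of them. Correlations used 100000 permutations. FPKM leaves the number of reads behind a value unknown. Pathway genes were named where they passed or had 1 of the 4 smallest p of a comparison. The members and lists were chosen with earlier results of these data known. Figures were drawn with matplotlib 3.10.9 in Python 3.11.15.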

Additional observations from a re-analysis of the deposited data

Results flagged for a closer look

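Of 36 tests (9 genes in 4 groups of 4 libraries), 3 libraries stood apart from the rest of their group, where chance flags about 1 in 20. Ogdh was low in WT ZT4 replicate 1, at 38.3 FPKM with the other 3 libraries at 42.4 to 43.0 FPKM. Sdha was low in WT ZT4 replicate 4, at 103 FPKM with the others at 107 FPKM. Sdhc was low in Bmal1hep-/- ZT4 replicate 1, at 155 FPKM with the others at 173 to 175 FPKM.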

How the results depend on the processing

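Under 27 alternative fits (16 leaving out 1 library each, 11 others), 0 members passed in any of the 7 comparisons; of 1674 member estimates, 97 changed sign and the smallest adjusted p was 0.105 (Idh3a, interaction, same summed FPKM per library). That scaling moved the median of all genes by 0.16 in the interaction and by -0.08 to 0.10 in the pairwise comparisons, so the members' medians of 0.12 in the interaction, 0.13 for Bmal1hep-/- ZT16 minus WT ZT16, 0.06 for Bmal1hep-/- night minus day, -0.07 for WT night minus day and -0.07 for Bmal1hep-/- ZT4 minus WT ZT4 under it follow all genes. Of 49 pathway genes, 1 passed for the interaction with library weights, Mpc1 (adjusted p = 0.0383 in limma), and 0 to 1 when 1 library was left out (Mpc1 without Bmal1hep-/- ZT4 replicate 1, -0.36, adjusted p = 0.0249). For Bmal1hep-/- minus WT averaged over times 1 passed with library weights, Mdh1 (adjusted p = 0.0473), and 1 without the 2 Bmal1hep-/- ZT4 libraries of extreme short-minus-long value, also Mdh1 (0.28, adjusted p = 0.0172), an alternative chosen after seeing the data. Over all alternatives the adjusted p ran from 0.0249 to 0.667 for Mpc1 and from 0.0172 to 0.323 for Mdh1 in these comparisons, and the cause was not tested.

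Counts over all genes moved more. They were 0 to 62 with 1 library left out and 0 to 13 otherwise (reported 2) for Bmal1hep-/- night minus day, and 0 to 6 and 0 to 18 (reported 0) for WT night minus day. For the genotypes they were 0 to 27 and 0 to 254 (reported 6) at ZT16, and 0 to 16 and 0 to 4 (reported 1) at ZT4. They were 6 to 109 and 3 to 127 (reported 11) for the interaction, 0 to 166 and 0 to 272 (reported 0) for the genotypes over both times, and 0 to 1 and 0 to 1 (reported 0) for the times over both genotypes. Same-numbered libraries were not shown to pair: their deviations correlated at -0.22 to 0.25 by the titles (4 of 24 pairs over 0.1) and -0.09 to 0.33 by the column names (8 of 24). With the replicate block, by titles or by column names (the second added after seeing the data), 0 members and 0 pathway genes passed in each comparison. FPKM gives no counts, so depth limits cannot be set per gene.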
